A study of Mus musculus with 20 samples.

Results

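The clustered histone genes were followed in the mouse line RAW264.7, whose monocyte-like and macrophage-like cells turn into osteoclasts, the bone-resorbing cells, under the cytokine RANKL. Members were the genes whose symbol in the deposited RPKM table begins with Hist1h, Hist2h, Hist3h or Hist4h, which gave 70 of the 50686 genes in the count table. Cells received RANKL (50 ng/ml) together with the BET bromodomain inhibitor I-BET (500 nM), I-BET alone, or RANKL alone, each for 4, 14 or 24 hours. Untreated cells stood for 0 hours. Each of the 10 groups held 2 poly(A)-selected libraries, 20 in all, of 19051780 to 62313792 counts. The labels do not say that the 2 libraries of a group came from separate cultures, so p-values measure the spread between these libraries, which may be technical. The labels name bone marrow as the source beside the cell line. Of 10 macrophage markers 9 were in the RPKM table and all 9 reached 1 RPKM, with a summed level of 1630 to 6400 RPKM per library. None of 12 markers of other cell types reached 1 RPKM, their sum was 0.05 to 0.377 RPKM, and Col1a2 and Ms4a1 were among those listed at 0 in every library.

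Histones package DNA: H2A, H2B, H3 and H4 form the nucleosome core and H1 binds the linker DNA between nucleosomes. Most clustered histone genes are transcribed strongly in S phase, have no introns, and make messenger RNAs that end in a conserved stem-loop in place of a poly(A) tail. Some of them can also be read through to a poly(A) signal further downstream, and those polyadenylated forms are known from differentiated and non-dividing cells. I-BET compounds displace BET bromodomain proteins from acetylated histones. Raised levels of some clustered histone mRNAs have been used as readouts of BET inhibition in other cells.

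Of the 70 genes, 56 carry the Hist1 name and lie on chromosome 13, 10 that of Hist2 on chromosome 3, 3 that of Hist3 on chromosome 11 and 1 that of Hist4 on chromosome 6. They comprise 6 H1, 20 H2A, 19 H2B, 12 H3 and 13 H4 genes. A poly(A) selection enriches mRNAs that carry a tail, so the annotated 3′ ends are shown, although RNAs without a tail were counted in every library as well. The following sites show both kinds of 3′ end in the 4 genes that were higher with I-BET and have an annotated poly(A) signal near the end, and in Hist1h4a, a gene whose level in the treated libraries stayed low. They were taken from GENCODE M21 transcripts on GRCm38 and are written 5′ to 3′ on the strand of the gene, with the stem-loop or the poly(A) signal hexamer (AATAAA or ATTAAA) in capitals. Hist1h1c, Hist1h4i and Hist3h2a carry both elements in 1 transcript. Their stem-loops stand 840, 330 and 1643 bases before its annotated end. Hist2h2be carries a signal and no match to the stem-loop.
Hist1h1c stem-loop, chr13:23739507-23739532 (+): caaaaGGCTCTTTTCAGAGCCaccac
Hist1h1c poly(A) signal, chr13:23740336-23740365 (+): gcttctAATAAAaagcgtttagttttcatt
Hist1h4i stem-loop, chr13:22040961-22040986 (-): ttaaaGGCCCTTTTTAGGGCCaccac
Hist1h4i poly(A) signal, chr13:22040636-22040662 (-): gtttacATTAAAagtattctatgctaa
Hist3h2a stem-loop, chr11:58955167-58955192 (+): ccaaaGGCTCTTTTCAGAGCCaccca
Hist3h2a poly(A) signal, chr11:58956791-58956820 (+): atgcccAATAAAataagagtacgtgtataa
Hist2h2be poly(A) signal, chr3:96223711-96223738 (+): attattAATAAAgttaccgattagtttc
Hist1h4a stem-loop, chr13:23760795-23760820 (-): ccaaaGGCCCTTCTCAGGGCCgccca
Hist1h4a poly(A) signal, chr13:23760697-23760726 (-): tgagtaAATAAAccttgagtgcctttggag

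One library stood apart. Untreated library 2 held 332 CPM (counts scaled to library total) of RNAs that lack a poly(A) tail, such as the 7SK, RNase P and RNase MRP RNAs, against 10.1 CPM in untreated library 1 and 2.58 to 21.5 CPM in the treated libraries. In it the 70 histone genes summed to 223 CPM, against 61.4 CPM in untreated library 1. It was therefore left out of the fits, which rest on 19 libraries, and each result that uses untreated cells is given with it as well. Of the 70 genes, 45 passed the minimum on counts (0.223 CPM in at least 2 of the 19 libraries and 15 counts in all) and were tested: 5 of 6 H1, 9 of 20 H2A, 13 of 19 H2B, 8 of 12 H3 and 10 of 13 H4 genes. The 25 that were not tested had 0 to 104 counts over the 19 libraries. Of these, 5 were listed at 0 in all 20 libraries (Hist1h2aa, Hist2h2aa1, Hist2h2aa2, Hist2h3b and Hist2h3c1). Without the 12 libraries that received I-BET, 37 would have passed, and 8 passed only through them, among them Hist1h2ad, Hist2h3c2, Hist1h4j and Hist1h4n. The minimum was reached in just 2 libraries by 2 members and in just 1 library by 3 others. Histone genes are near copies of each other, and how reads shared between copies were assigned is unknown here, and the values of single genes carry that uncertainty.

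Levels were very unequal. Per length, Hist1h1c, which encodes linker histone H1.2, ranked first among the members in all 19 libraries and made up 27.8% to 71.9% of the members' counts there. Hist1h2bc, an H2B gene, ranked next in 18 of the 19 libraries, and Hist1h4i, an H4 gene, came after it in 18. In cells given RANKL plus I-BET, the members summed to 398 and 417 CPM at 4 hours, 185 and 190 CPM at 14 hours, and 238 and 212 CPM at 24 hours. Cells given I-BET alone held 354 and 388 CPM at 4 hours, 164 and 191 CPM at 14 hours, and 203 and 213 CPM at 24 hours. In cells given RANKL alone the sums were 79.0 and 72.9 CPM at 4 hours, 34.6 and 33.0 CPM at 14 hours, and 53.0 and 34.6 CPM at 24 hours. The I-BET libraries thus lay above the RANKL libraries at every hour, with no overlap. In bulk libraries a larger share of cells expressing a gene and more RNA per cell cannot be told apart.

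**Figure D1:**
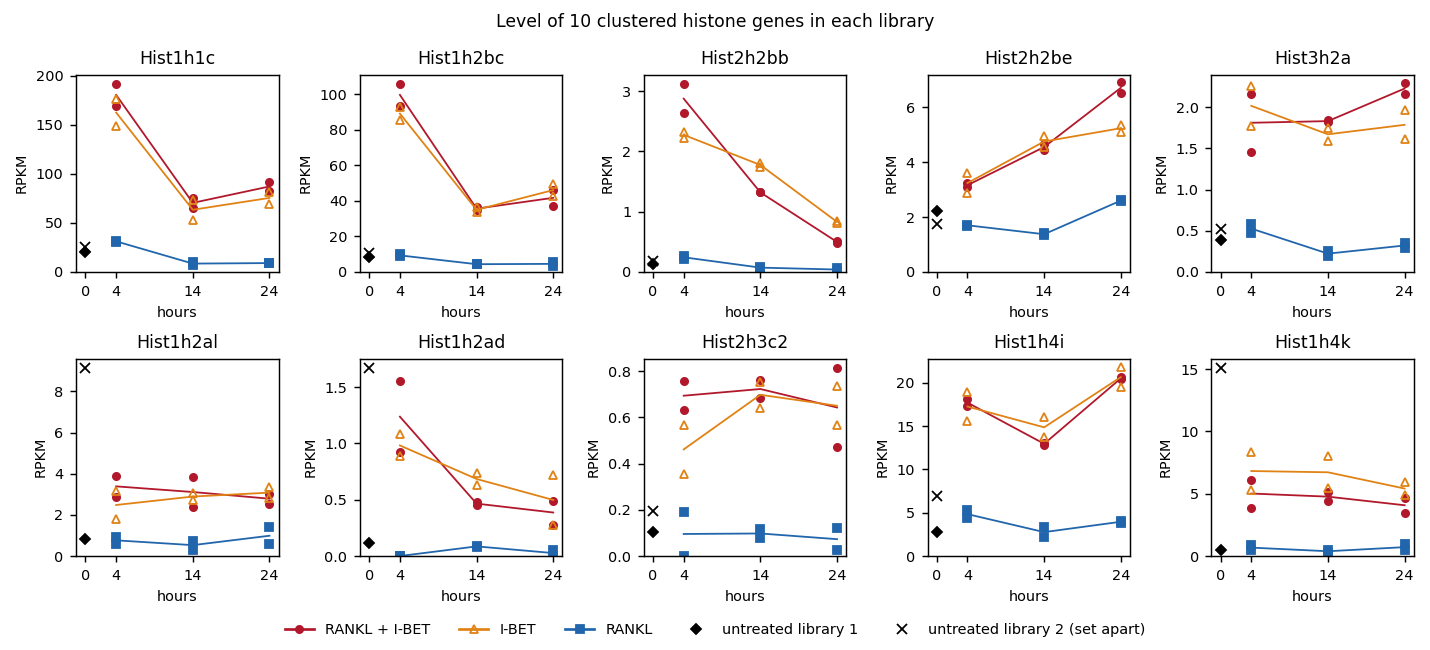
RPKM (vertical axis, linear from 0) against hours for the 10 clustered histone genes called between RANKL plus I-BET and RANKL at every hour; points are single libraries and lines join the means of 2 libraries. The red and orange lines lie above the blue RANKL line in all 10 panels, and untreated library 2 (cross) stands far above untreated library 1 (diamond) for Hist1h2al, Hist1h2ad and Hist1h4k, with Hist1h4k at 15.1 RPKM against 0.505 RPKM.

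A minority of the clustered histone genes was called higher when I-BET was added to RANKL. Of 45 tested, 11 were higher in RANKL plus I-BET than in RANKL cells at 4 hours, 11 at 14 hours and 11 at 24 hours, and none was lower (edgeR's quasi-likelihood test, Benjamini-Hochberg adjusted p under 0.05). Among all 16057 genes tested, 4.43% were called higher at 4 hours, 10.3% at 14 hours and 13.5% at 24 hours, against 24.4% of the tested members at each hour. Called lower were 5.87%, 10.5% and 11.9% of all genes tested. This excess depends on the fit. With libraries 1 and 2 as a block, described below, it remained at 4 hours. In that fit the members' share in either direction lay near that of all genes at 14 hours and below it at 24 hours. Of the members that pass the count minimum without the I-BET libraries, 9 of 37 were called at each hour. Of those that pass only with them, a choice that favours genes higher with I-BET, 2 of 8 were. The median log2 fold change of the 45 was 0.90 at 4 hours, 0.91 at 14 hours and 0.39 at 24 hours, beside 0.00, -0.03 and -0.05 over all genes tested. Called or not, 38, 38 and 25 of the 45 had a log2 fold change above 0 (rounded to 2 decimals), and 6, 6 and 20 below 0. A gene without a call was therefore not shown to be unchanged. The called genes were 10 at every hour, with Hist1h3d added at 4 and 14 hours and Hist1h3g at 24 hours. They comprised 1 H1, 3 H2A, 3 H2B, 3 H3 and 2 H4 genes.

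The H1 gene was Hist1h1c. At 4 hours it stood at 169 and 192 RPKM in RANKL plus I-BET cells, against 31.6 and 30.9 RPKM in RANKL cells. At 14 hours the values were 65.4 and 75.5 RPKM with RANKL plus I-BET, against 7.38 and 9.73 RPKM with RANKL. At 24 hours they were 91.7 and 82.6 RPKM with RANKL plus I-BET, against 9.45 and 8.72 RPKM with RANKL. Every RANKL plus I-BET library thus exceeded every RANKL library of its hour. The fold changes were 5.72, 7.95 and 9.44, or 2.51 ± 0.20, 2.99 ± 0.20 and 3.24 ± 0.21 on the log2 scale (± SE), with edgeR adjusted p of 1.52e-05, 1.25e-06 and 4.73e-07. The 4 other tested H1 genes, Hist1h1a, Hist1h1b, Hist1h1d and Hist1h1e, were called at no hour in the fit without a block for the library number, and each stayed at 103 counts or fewer in every treated library, against 557 to 13626 for Hist1h1c.

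Of the H2B genes, Hist1h2bc had 106 and 93.3 RPKM in RANKL plus I-BET cells at 4 hours, against 9.97 and 8.74 RPKM in RANKL cells. It then had 36.5 and 34.8 RPKM with RANKL plus I-BET at 14 hours, against 4.38 and 4.39 RPKM with RANKL. At 24 hours it had 46.3 and 37.2 RPKM with RANKL plus I-BET, against 5.62 and 3.52 RPKM with RANKL. Its log2 fold changes were 3.40 ± 0.17, 2.98 ± 0.17 and 3.17 ± 0.17, the edgeR adjusted p was 5.01e-07 at 4 hours, and no library overlapped. Hist2h2bb is annotated as a lincRNA in GENCODE M21, and its exons overlap those of Gm20628 on the opposite strand. The kit did not mark strand, so reads from that overlap cannot be told apart. The exons of Hist2h2bb also overlap those of another gene of the same symbol on the same strand. That gene is protein-coding in GENCODE M21 and listed at 0 in all 20 libraries of the count table. How reads shared by both were counted is unknown here. Hist2h2bb had 3.12 and 2.63 RPKM with RANKL plus I-BET at 4 hours, against 0.223 and 0.265 RPKM with RANKL. By 24 hours it held 0.481 and 0.515 RPKM with RANKL plus I-BET, against 0.0165 and 0.0647 RPKM with RANKL. The level of Hist2h2bb thus fell in both treatments while the fold change stayed large, at 3.54 ± 0.26, 4.12 ± 0.31 and 3.53 ± 0.37 on the log2 scale (edgeR adjusted p 9.35e-06, 2.61e-06 and 1.8e-05). At 24 hours the RANKL libraries held just 1 and 4 counts of it, and the log2 fold change was 2.86 without RANKL library 1 and 4.79 without RANKL library 2. Hist2h2be differed less. It had 6.91 and 6.5 RPKM with RANKL plus I-BET at 24 hours, against 2.62 and 2.58 RPKM with RANKL. Its log2 fold changes were 0.88 ± 0.13 at 4 hours, 1.68 ± 0.13 at 14 hours and 1.34 ± 0.12 at 24 hours.

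The 3 H2A genes were Hist3h2a, Hist1h2al and Hist1h2ad. Hist3h2a, from the small Hist3 cluster, had 2.16 and 1.46 RPKM in RANKL plus I-BET cells at 4 hours, against 0.586 and 0.467 RPKM in RANKL cells. At 14 hours it had 1.84 and 1.82 RPKM with RANKL plus I-BET, against 0.255 and 0.190 RPKM with RANKL, a log2 fold change of 2.99 ± 0.25 (edgeR adjusted p 5.6e-06). Its exons overlap those of Trim17 on the same strand and those of Gm44313 on the opposite strand. The exons of Hist1h2al and Hist1h2ad overlap those of Gm44341 and Gm44359, each on the opposite strand. The kit did not mark strand, so reads from the stretches where such genes overlap cannot be told apart. Hist1h2al is a processed pseudogene in GENCODE M21 at chr13:51202688-51203065, outside the cluster, and had 2.87 and 3.90 RPKM with RANKL plus I-BET at 4 hours, against 0.937 and 0.589 RPKM with RANKL. Hist1h2ad had 55 counts over the 2 RANKL plus I-BET libraries at 4 hours and none in the 2 RANKL libraries. Against a floor of 3 counts over the group, Hist1h2ad was 19.6-fold higher with RANKL plus I-BET. The lower limit of the exact 95% counting interval was 15.4-fold. At 24 hours it had 18 counts with RANKL plus I-BET against 1 with RANKL, a ratio of 14.1 with an exact 95% counting interval of 2.22 to 586.

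Among the H3 genes, Hist2h3c2 had 0.758 and 0.630 RPKM in RANKL plus I-BET cells at 4 hours, against 0.191 and 0 RPKM in RANKL cells. Its log2 fold changes were 2.72 ± 0.73, 2.81 ± 0.75 and 3.07 ± 0.80. They rested on single RANKL libraries: without RANKL library 1 the value was 7.98 at 4 hours, where the other RANKL library had no counts and the value depends on the prior count, and 4.54 at 24 hours, and without RANKL library 2 it was 1.86 at 4 hours and 2.38 at 24 hours. Hist1h3d had 3.14 and 2.29 RPKM with RANKL plus I-BET at 4 hours, against 0.759 and 0.636 RPKM with RANKL. Hist1h3g had 3.21 and 2.69 RPKM with RANKL plus I-BET at 24 hours, against 0.876 and 0.401 RPKM with RANKL. The libraries of these genes did not overlap at those hours, but their counts were low. The H4 gene Hist1h4i had 17.3 and 18.1 RPKM with RANKL plus I-BET at 4 hours, against 4.34 and 5.33 RPKM with RANKL. At 24 hours Hist1h4i had 20.6 and 20.4 RPKM with RANKL plus I-BET, against 3.84 and 4.07 RPKM with RANKL, a log2 fold change of 2.35 ± 0.21 (edgeR adjusted p 6.03e-06). Hist1h4k had 4.39 and 5.14 RPKM with RANKL plus I-BET at 14 hours, against 0.520 and 0.249 RPKM with RANKL, a log2 fold change of 3.58 ± 0.47.

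**Figure D2:**
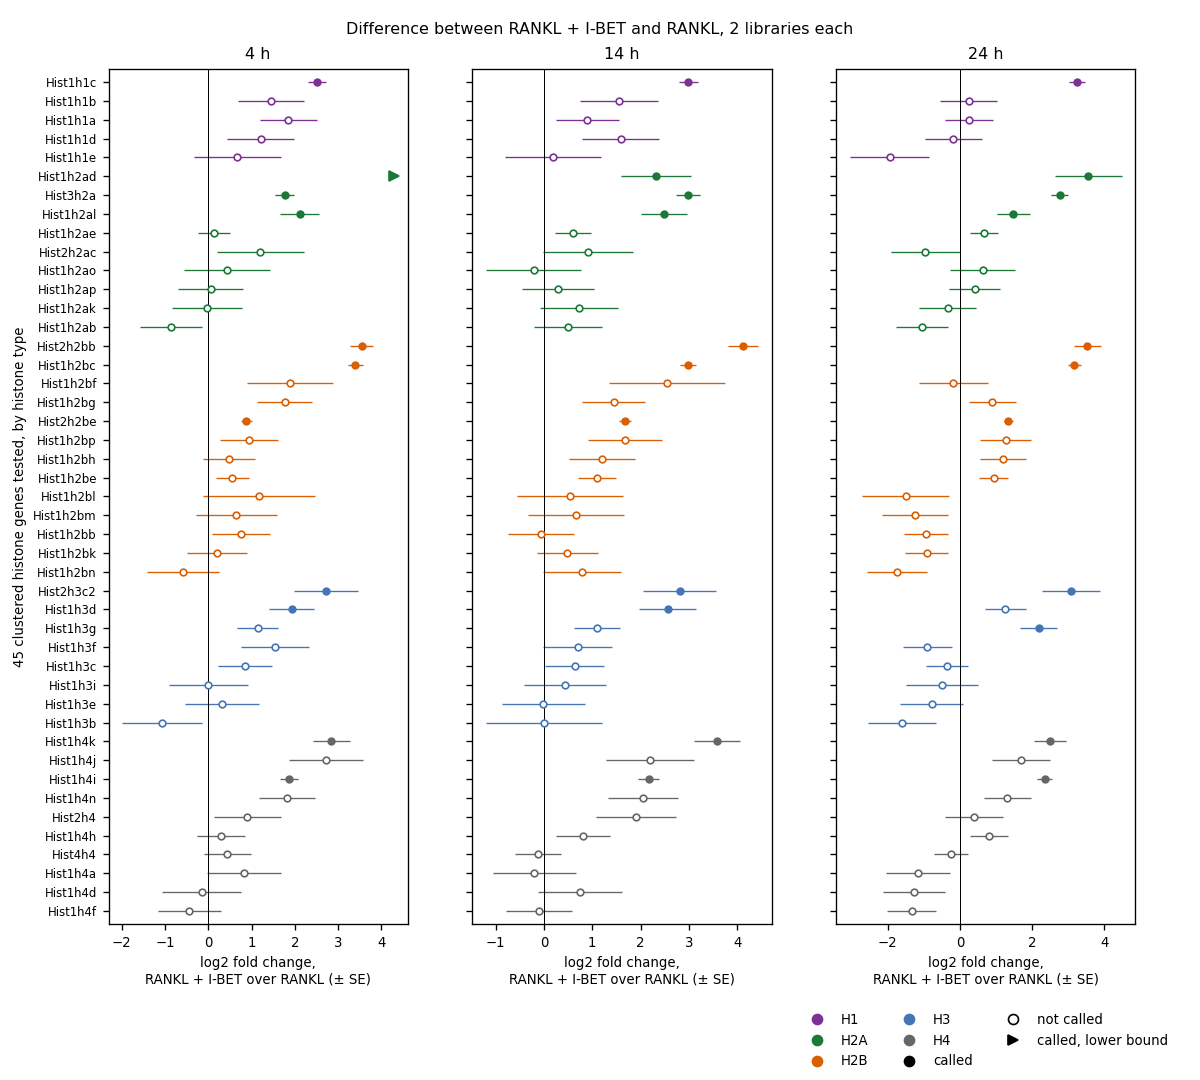
Log2 fold change of RANKL plus I-BET over RANKL (horizontal axis, bars ± SE, 2 libraries a group) for the 45 tested genes at 4, 14 and 24 hours, ordered by histone type. Filled points were called. The triangle for Hist1h2ad at 4 hours, labelled a lower bound, stands at its ratio against a floor of 3 counts and not at the 95% limit. In each panel 11 genes are filled and all of those lie to the right of 0.

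The number of calls was larger once the library number entered the fit. With libraries 1 and 2 as a block, 18, 19 and 16 members were higher in RANKL plus I-BET than in RANKL cells, and 0, 0 and 2 were lower. In either direction this was 40%, 42.2% and 40% of the tested members, where 27.1%, 39.1% and 45.6% of all genes were called with the block. The members' share thus lay above that of all genes at 4 hours, near it at 14 hours and below it at 24 hours. Every member called without the block was also called with it. The block added Hist1h4j, Hist1h4n and Hist1h2bg at all 3 hours. Of these, Hist1h4j and Hist1h4n passed the count minimum only through the I-BET libraries, a choice that favours genes higher with I-BET. Of the H1 genes it added Hist1h1b and Hist1h1d at 4 and 14 hours and Hist1h1a at 4 hours, with log2 fold changes at 4 hours of 1.48 for Hist1h1b, 1.28 for Hist1h1d and 1.87 for Hist1h1a (edgeR adjusted p with the block 0.00557, 0.0359 and 0.00547). Hist1h4j had 57 and 16 counts with RANKL plus I-BET at 4 hours, against 5 and 6 with RANKL. The 2 lower ones at 24 hours were Hist1h1e and Hist1h2bn, and for both the libraries overlapped. Hist1h1e had 0.472 and 0.396 RPKM with RANKL plus I-BET, against 2.90 and 0.457 RPKM with RANKL. Hist1h2bn had 0.272 and 0.0972 RPKM with RANKL plus I-BET, against 0.982 and 0.257 RPKM with RANKL. RANKL library 1 of 24 hours also had the most RNA without a poly(A) tail among treated libraries, 21.5 CPM, and its part in the result was not tested. Without that library, 14 members were called at 24 hours. Leaving out 1 library at a time, 8, 8 and 7 of the 11 calls held throughout. Those that ended were of Hist2h3c2 (at 4 hours without RANKL library 2 or either RANKL plus I-BET library, at 14 hours without any of the 4, at 24 hours without RANKL library 2 or RANKL plus I-BET library 1), Hist1h3d (at 4 hours without any of the 4, at 14 hours without RANKL library 2 or RANKL plus I-BET library 1) and Hist1h2al (at 4 hours without library 2 of either group, at 24 hours without RANKL library 2 or either RANKL plus I-BET library). The same held for Hist1h2ad (at 14 hours without any of the 4, at 24 hours without library 1 of either group) and Hist1h3g (at 24 hours without RANKL library 2). By DESeq2 Hist1h2ad was not called at 14 and 24 hours (adjusted p 0.0726 and 0.0651). With all 20 libraries 8, 10 and 8 members were called, and the calls of Hist1h4k (4 and 24 hours), Hist1h2ad (14 and 24 hours), Hist1h2al (4 and 24 hours) and Hist1h3d (4 hours) ended.

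In cells that had I-BET, RANKL made few detected differences to any genes and none to the clustered histone genes. The lack of calls was therefore not particular to the members. No member was called between RANKL plus I-BET and I-BET cells at 4, 14 or 24 hours by edgeR, with or without the block, or by DESeq2, where 0.380%, 0.641% and 0.0685% of all genes tested were called by edgeR. At an unadjusted p under 0.05 the counts of members were 0, 0 and 2. Hist1h1c stood at 91.7 and 82.6 RPKM with RANKL plus I-BET at 24 hours, against 69.7 and 81.3 RPKM with I-BET, a log2 fold change of 0.20 ± 0.19. The 2 with an unadjusted p under 0.05 at 24 hours were Hist2h2bb and Hist2h2be. Hist2h2bb had 0.481 and 0.515 RPKM with RANKL plus I-BET, against 0.807 and 0.854 RPKM with I-BET (log2 fold change -0.74 ± 0.24, edgeR adjusted p 0.584). Hist2h2be had 6.91 and 6.5 RPKM with RANKL plus I-BET, against 5.11 and 5.36 RPKM with I-BET (log2 fold change 0.36 ± 0.12, edgeR adjusted p 0.597). For both genes the libraries did not overlap. With 2 libraries a group such separation was common: it held for 6 of the 45 tested members upward and 8 downward, these 2 included.

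Clustered histone genes were also higher in cells given I-BET without RANKL than in untreated cells. Taking untreated library 1 alone, 6, 7 and 7 members were higher in I-BET cells at 4, 14 and 24 hours and none was lower, where 1.29%, 2.20% and 3.38% of all genes tested were called higher and 2.77%, 5.62% and 7.03% lower. A single untreated library was assumed to vary like the other groups. Untreated cells stood for 0 hours only, so time in culture and treatment cannot be told apart in this comparison. Hist1h1c, Hist1h2bc, Hist1h4i, Hist1h4k, Hist2h2bb and Hist3h2a were called at every hour and Hist2h2be at 14 and 24 hours. All 7 were also among the genes raised by I-BET in RANKL cells. Hist1h1c had 149 and 176 RPKM with I-BET at 4 hours, against 20.2 RPKM in untreated library 1 and 25.2 RPKM in untreated library 2. Hist1h2bc had 92.8 and 85.5 RPKM with I-BET at 4 hours, against 8.56 and 10.5 RPKM in untreated libraries 1 and 2. For both genes the 2 untreated libraries lay close together, far below the I-BET libraries. The log2 fold changes at 4 hours against untreated library 1 were 2.95 ± 0.27 for Hist1h1c and 3.32 ± 0.23 for Hist1h2bc (edgeR adjusted p 0.000186 and 6.34e-05).

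Hist1h4k did not behave alike against the 2 untreated libraries. It had 5.30 and 8.34 RPKM with I-BET at 4 hours, against 0.505 RPKM in untreated library 1, where it rested on 3 counts, and 15.1 RPKM in untreated library 2. Its log2 fold change at 4 hours was 3.67 ± 0.70 against untreated library 1 (edgeR adjusted p 0.0121), and -0.50 (edgeR adjusted p 0.776) with all 20 libraries in the fit. With untreated library 2 in place of library 1 it was -1.38. Its call at 4 hours also ended without I-BET library 2 (edgeR adjusted p 0.0584). With all 20 libraries, where 48 members passed the minimum, 6, 6 and 6 were higher and 12, 19 and 16 lower in I-BET than in untreated cells, and 10.5%, 13.7% and 17.7% of all genes were called in either direction. The other 6 named genes kept their calls in that fit. The log2 fold change of Hist1h4i at 4 hours was 2.60 ± 0.31 against untreated library 1 and 1.07 with untreated library 2 in its place, and that of Hist3h2a was 2.31 ± 0.34 and 1.71.

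No clustered histone gene was called higher with RANKL alone than in untreated library 1 after the count minimum. Here too, time in culture and treatment cannot be told apart. None was called at 4 hours by edgeR or DESeq2, 3 were lower at 14 hours and 2 at 24 hours, where 0.417%, 6.32% and 7.57% of all genes tested were called lower and 0.573%, 3.52% and 3.36% higher. At 4 hours 3 members had an unadjusted p under 0.05. Hist1h1c had 31.6 and 30.9 RPKM with RANKL at 4 hours, against 20.2 RPKM in untreated library 1 and 25.2 RPKM in untreated library 2, a log2 fold change of 0.64 ± 0.24 against library 1 (edgeR adjusted p 0.353). Without the count minimum Hist1h1c was called higher at 4 hours (edgeR adjusted p 0.0413), and so was Hist1h2ao at 14 and 24 hours, a gene with no counts in untreated library 1 and 15 in library 2. Hist1h1c had 7.38 and 9.73 RPKM with RANKL at 14 hours, against 20.2 RPKM in untreated library 1 and 25.2 RPKM in untreated library 2, a log2 fold change of -1.16 ± 0.23 against library 1 (edgeR adjusted p 0.00678). At 24 hours the log2 fold change of Hist1h1c was -1.13 ± 0.23. Hist1h2bc had 4.38 and 4.39 RPKM with RANKL at 14 hours, against 8.56 and 10.5 RPKM in untreated libraries 1 and 2, a log2 fold change of -0.89 ± 0.21. Both RANKL libraries of each gene lay below both untreated libraries. Hist2h2be was lower at 14 hours only, by a log2 fold change of -0.62 ± 0.16. The calls of Hist1h2bc ended at 14 hours without either RANKL library and at 24 hours without RANKL library 2, and that of Hist2h2be ended without any 1 of its libraries. With all 20 libraries 13, 34 and 23 members were lower in RANKL than in untreated cells and none was higher, where 3.91%, 18.4% and 18.9% of all genes were called in either direction.

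Between 4 and 24 hours few members were called, at shares near or below those of all genes. The called genes moved in opposite directions, and Hist1h4i was not among them in any treatment. Hist1h1c, Hist1h2bc and Hist2h2bb were lower and Hist2h2be was higher at 24 than at 4 hours in each of the 3 treatments. In RANKL plus I-BET cells 1 member was higher (2.22%) and 3 were lower (6.67%), where 5.94% and 7.72% of all genes tested were called. The log2 fold changes there were -1.05 ± 0.19 for Hist1h1c, -1.25 ± 0.16 for Hist1h2bc, -2.52 ± 0.24 for Hist2h2bb and 1.09 ± 0.12 for Hist2h2be. I-BET cells also had 1 higher (2.22%) and 3 lower (6.67%), where 3.69% and 5.11% of all genes were called. The same 4 genes, in the same order, had -1.05 ± 0.19, -0.90 ± 0.15, -1.39 ± 0.23 and 0.75 ± 0.12. In RANKL cells 2 were higher (4.44%) and 3 lower (6.67%), where 8.48% and 12.2% of all genes were called. The 4 genes there had -1.77 ± 0.20, -1.03 ± 0.17, -2.51 ± 0.40 and 0.62 ± 0.13, and the value of Hist2h2bb was -1.81 without RANKL library 1 of 24 hours and -3.77 without library 2. The other gene higher in RANKL cells, Hist4h4, had 0.157 and 0.0768 RPKM at 24 hours, against 0.0433 and 0.0311 RPKM at 4 hours, and its call ended without RANKL library 1 of 24 hours or either RANKL library of 4 hours, by DESeq2 (adjusted p 0.0961), with all 20 libraries (edgeR adjusted p 0.337) and without the count minimum (edgeR adjusted p 0.128). Without RANKL library 2 of 24 hours, 8 members were called. With the block 7 members were higher and 4 lower in RANKL cells, and 2 higher and 6 lower in RANKL plus I-BET cells, where 41.6% and 35.1% of all genes were called in either direction.

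The size of the I-BET effect in RANKL cells was not called different between 24 and 4 hours for any member, by edgeR without the block or by DESeq2, where 6.37% of all genes tested were called in either direction by edgeR. At an unadjusted p under 0.05 the count of members was 4. Hist3h2a had the lowest p: its log2 difference of differences was 1.0 ± 0.33 (edgeR adjusted p 0.103), from 2.76 ± 0.24 at 24 hours against 1.76 ± 0.23 at 4 hours. With the block 3 members were called higher, Hist1h1c, Hist2h2be and Hist3h2a, and 2 lower, Hist1h1e and Hist1h3f, the last 2 with few counts, where 20.5% of all genes were called in either direction. Without RANKL library 2 of 24 hours 1 member was called.

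The ratio of the 2 untreated libraries differed widely among the members. Of the 45 tested genes, 35 had at least 4 times the CPM in untreated library 2 that they had in library 1, and 10 had less than that, where the median ratio over all genes tested was 0.889. Of those 10, 7 were called between RANKL plus I-BET and RANKL cells at any hour, and of the 35, 5 were. The ratio was 1.25 for Hist1h1c, 1.22 for Hist1h2bc, 1.30 for Hist2h2bb, 0.786 for Hist2h2be, 1.33 for Hist3h2a, 1.90 for Hist2h3c2 and 2.54 for Hist1h4i. The 3 uncalled genes under 4 were Hist1h2be (1.65), Hist1h2bp (3.16) and Hist1h2bh (3.39). The highest ratio was that of Hist1h4a, 85.3, from 180 counts against 1. Hist1h3d lay just above the limit at 4.27. Among the called genes Hist1h4k stood out with 189 counts against 3, a ratio of 29.9. These ratios compare 2 libraries and do not test a condition. The 10 also held more counts, with a sum of 68.7 and 66.0 CPM in RANKL cells at 4 hours, against 9.41 and 6.45 CPM for the 35. Genes with few counts are harder to call, so the shares called in the 10 and the 35 are not alike in precision.

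**Figure D3:**
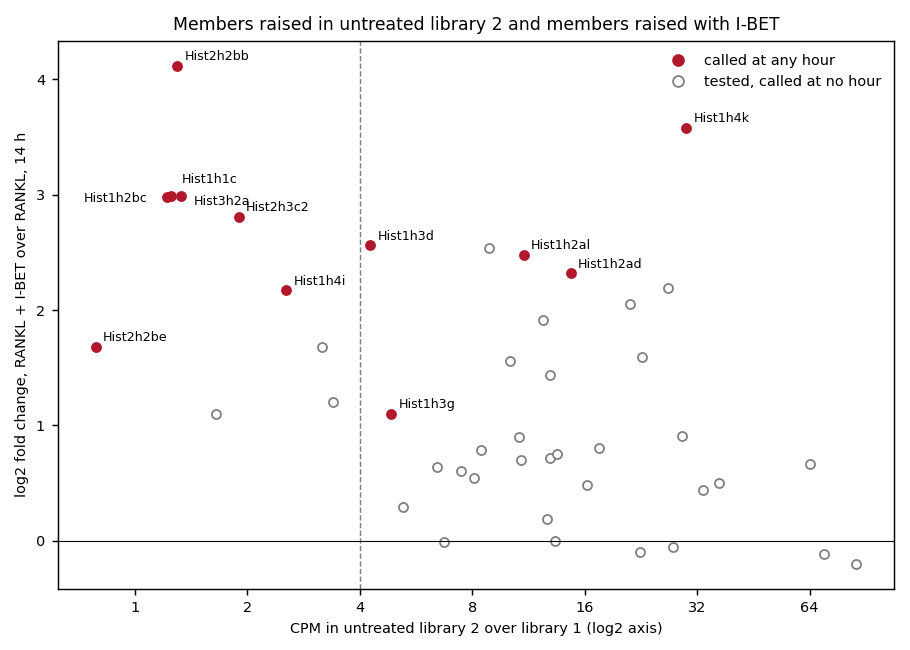
Log2 fold change of RANKL plus I-BET over RANKL at 14 hours (vertical axis) against the ratio of CPM in untreated library 2 to library 1 (horizontal axis, log2 scale, dashed line at 4) for 44 of the 45 tested genes; Hist1h2ao had no counts in library 1. Red points were called at any hour: 7 of them lie left of the line and 5 right of it.

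The 35 members with the higher ratio also differed between libraries 1 and 2 of the treated groups. Their summed level was higher in library 1 in 9 of 9 treated groups, by 1.10 to 3.46 times, and so was that of the RNAs without a poly(A) tail, by 1.08 to 8.08 times. The widest gap for both was in RANKL cells at 24 hours, 19.4 CPM in library 1 and 5.60 CPM in library 2 for the histone genes, and 21.5 and 2.66 CPM for the RNAs without a tail. RANKL plus I-BET cells at 24 hours held 15.8 and 13.4 CPM of the histone genes, and 2.84 and 2.63 CPM of the RNAs without a tail. At 4 hours the same members held 20.5 and 15.7 CPM in RANKL plus I-BET cells, against 9.41 and 6.45 CPM in RANKL cells. The 10 members with the lower ratio, to which the leading genes belong, held 377 and 401 CPM in RANKL plus I-BET cells at 4 hours, against 68.7 and 66.0 CPM in RANKL cells. How far carry-over of RNA without a tail sets the values of the 35 was not tested.

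**Figure D4:**
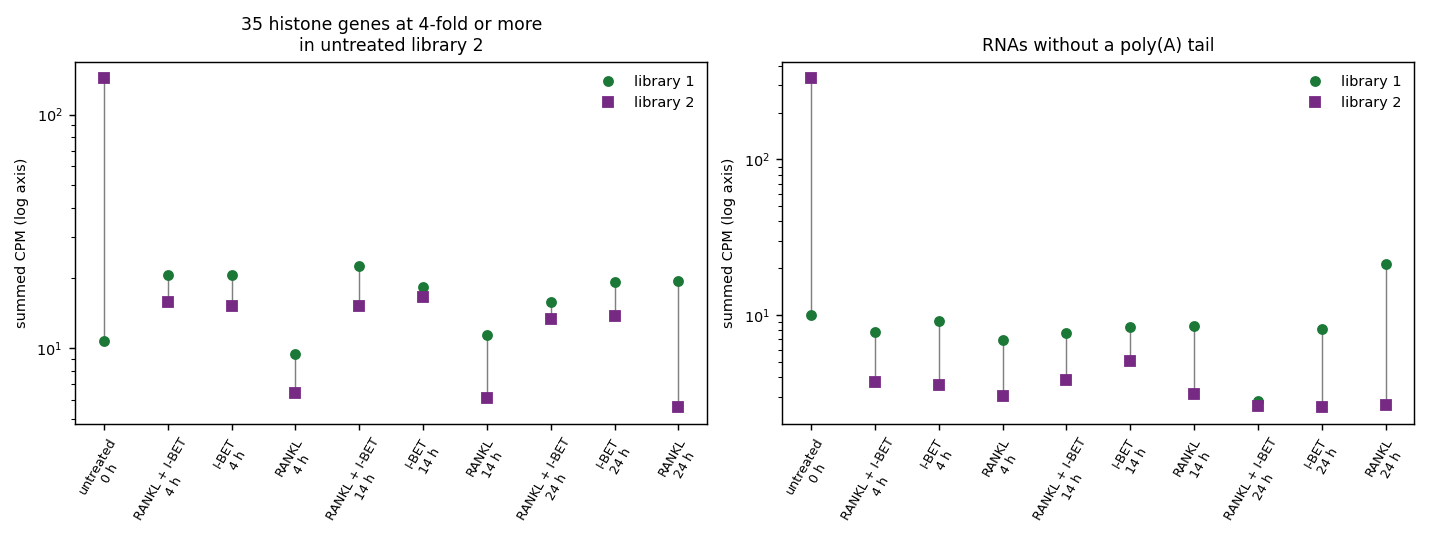
Summed CPM (log axis) of the 35 histone genes with at least 4 times the CPM in untreated library 2 (left) and of RNAs without a poly(A) tail (right), for library 1 (circle) and library 2 (square) of each of the 10 groups. Library 1 lies above library 2 in all 9 treated groups in both panels, and untreated library 2 is the highest of all, at 143 CPM and 332 CPM.

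The annotated 3′ ends were set beside these calls. A poly(A) signal in the last 40 bases of a GENCODE M21 transcript was found for 4 of the 12 genes called at any hour and 8 of the 33 tested and never called. A stem-loop match was found for 7 of the 12 and 25 of the 33. GENCODE transcripts and the intervals of the deposited table can differ, and a missing signal says only that the annotated end does not hold these letters. Many core histone genes lie head to head in H2A and H2B pairs that share a promoter region. Among the members, 14 such pairs had starts 173 to 306 bases apart, and both genes were tested in 4 of the pairs. Of these, 2 had 1 called gene and none had both called. In 2 other pairs 1 gene was called and its partner was not tested. Hist1h2bc had 11882 counts over the 6 RANKL plus I-BET libraries, against 1300 over the 6 RANKL libraries, whereas its partner Hist1h2ac had 32 against 11 and was not tested. Hist2h2be had 3400 counts against 1367, and its partner Hist2h2ac had 43 against 37. Hist3h2a had 1134 against 220, and its partner Hist3h2bb-ps had 1 against 1 and was not tested. Hist1h2ad had 88 against 5, and its partner Hist1h2bf had 64 against 29.

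Promoters of 3 of the called genes whose 3′ ends are shown above are given with the motifs searched on both strands in capitals. These were the TATA box (TATAAA), the CCAAT box and the octamer core (TTTGCAT). They run from 250 bases before to 50 bases after the start and were taken from RefSeq on GRCm38.p6.
Hist1h1c, chr13:23738557-23738856 (+): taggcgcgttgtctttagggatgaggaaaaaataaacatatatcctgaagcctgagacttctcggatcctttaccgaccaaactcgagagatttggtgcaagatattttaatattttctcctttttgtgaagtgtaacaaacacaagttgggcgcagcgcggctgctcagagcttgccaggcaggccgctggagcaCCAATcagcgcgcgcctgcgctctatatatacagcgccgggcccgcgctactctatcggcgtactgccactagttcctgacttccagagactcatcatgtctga
Hist1h4i, chr13:22041313-22041612 (-): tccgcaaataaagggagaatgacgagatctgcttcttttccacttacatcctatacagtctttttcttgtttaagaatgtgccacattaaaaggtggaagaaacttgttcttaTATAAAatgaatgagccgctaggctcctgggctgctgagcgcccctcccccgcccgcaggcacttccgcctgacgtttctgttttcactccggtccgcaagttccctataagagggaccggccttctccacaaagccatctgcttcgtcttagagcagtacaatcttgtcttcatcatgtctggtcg
Hist3h2a, chr11:58954435-58954734 (+): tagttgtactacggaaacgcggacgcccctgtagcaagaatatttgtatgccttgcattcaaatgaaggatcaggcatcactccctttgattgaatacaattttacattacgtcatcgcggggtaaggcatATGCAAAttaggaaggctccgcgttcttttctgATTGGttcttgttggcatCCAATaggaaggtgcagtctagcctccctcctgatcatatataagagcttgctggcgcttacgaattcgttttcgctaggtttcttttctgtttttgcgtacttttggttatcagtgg
Of the 70 members 68 were matched to RefSeq and 60 had a promoter window. CCAAT was found in 51 of the 60, against 37.4% of all 32851 windows, TATAAA in 34 of them, against 13.6%, and TTTGCAT in 15, against 4.63%. None of the 60 held the E-box CACGTG, which 7.15% of all windows held. Among called genes with a window CCAAT was in 7 of 9, TATAAA in 4 of 9 and TTTGCAT in 2 of 9. Among tested genes never called they were in 26, 21 and 8 of 31. The 3 promoters differ in these letters, since that of Hist1h4i holds no CCAAT and those of Hist1h1c and Hist3h2a hold no TATAAA. A match describes letters anywhere in the window, and the TATAAA of Hist1h4i lies far upstream of the start. Similar letters that differ from TATAAA stay in lower case, such as tatatata in Hist1h1c and catatataag in Hist3h2a. A window without TATAAA can therefore still hold a similar stretch. No window was given for Hist1h2bc and Hist2h2be.

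Other genes of the histone pathway were counted in the same comparison. Of 25 S phase genes, which are active when replication-dependent histones are made, none was higher and 10, 9 and 9 were lower in RANKL plus I-BET than in RANKL cells at 4, 14 and 24 hours, where 5.87%, 10.5% and 11.9% of all genes tested were called lower and 4.43%, 10.3% and 13.5% higher. The largest falls were those of Ccne2 at 4 hours (log2 fold change -0.87 ± 0.17) and Cdt1 at 14 hours (-0.77 ± 0.16). Of 25 genes of histone mRNA transcription and 3′ processing, 1, 0 and 2 were higher and 0, 4 and 2 lower, shares near or below those of all genes except for the 4 lower at 14 hours. Slbp, which encodes the protein that binds the stem-loop, was higher at 24 hours by 0.37 ± 0.11 on the log2 scale. Of 15 histone chaperones none was higher and 0, 8 and 6 were lower. Of 11 histones listed as replication-independent, whose symbols do not carry the cluster names, 2, 4 and 5 were higher and none was lower. H1f0, the replacement linker histone of differentiated cells, had the largest difference among them, with log2 fold changes of 1.73 ± 0.18, 2.5 ± 0.18 and 2.44 ± 0.18. From 4 to 24 hours, 19 of the 25 S phase genes were higher at 24 hours in RANKL plus I-BET cells and 20 in RANKL cells, with none lower, where 5.94% and 8.48% of all genes tested were called higher, while Hist1h1c, Hist1h2bc and Hist2h2bb were lower in both.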

How the data were processed

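RNA of 20 RAW264.7 libraries was sequenced on an Illumina instrument after poly(A) selection with a kit that does not mark strand, per the labels' protocols. The submitters' processing notes name FastQC, STAR 2.5.3a, GRCm38 (mm10) and DESeq2 1.16.1. How reads were counted, by which tool, annotation release and strand setting, is not given in the sources used here. The authors deposited read counts per gene, which entered every test, and RPKM, which were used for levels and follow from the same counts, the gene length and the library's sum.

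The counts of 19 libraries were fitted by group with edgeR 4.0.16 (R 4.3.3, TMM factors), leaving 9 residual degrees of freedom, and tested with robust quasi-likelihood F tests after the count minimum stated with the results. P-values were adjusted over all 16057 genes tested, in each of 16 comparisons. The SE is the log2 fold change over the square root of F. The fit was tested on simulated data. The members and lists were chosen with earlier results of these data known. Every tested member could be named, and in a comparison those called were. Of the other lists, the called gene of the largest change was named, except where it is not reported here.

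Libraries of the same number deviated together in all 45 pairs of groups (correlation 0.223 to 0.597), so libraries 1 and 2 pair across groups. The numbers come from the labels, which name no batch. Alternatives were RLE factors, no count minimum, DESeq2 1.42.0, all 20 libraries, a replicate block and leaving out each library. Library totals set the precision, and counting intervals (exact, 95%) and floors (3 counts) cover counting error only. Stem-loops and motifs were found by letter matches with Python 3.11.15, and figures drawn with matplotlib 3.10.9.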

Additional observations from a re-analysis of the deposited data

Results flagged for a closer look

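Untreated library 2, which entered no comparison as reported, held 223 CPM of the 70 clustered histone genes, against 61.4 CPM in untreated library 1. Most of the excess lay outside Hist1h1c: the 69 other members held 184 CPM in library 2 and 29.9 CPM in library 1. Hist1h1c made up 17.6% of the members' counts in library 2 and 51.3% in library 1.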

How the results depend on the processing

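Of 71 calls of a member in a comparison, the replicate block and RLE factors ended none. DESeq2 ended 3, no count minimum 3 and all 20 libraries 8, while 3 more turned round with all 20 libraries, and 17 ended when at least 1 library was left out. Beside the counts given here, the block changed no other count of calls by more than 1.5 times. With the block 18, 19 and 18 members were called between RANKL plus I-BET and RANKL cells at 4, 14 and 24 hours, 11 between 24 and 4 hours of RANKL, 8 between 24 and 4 hours of RANKL plus I-BET, and 5 for the difference of differences. Without a count minimum the counts were 17 between RANKL plus I-BET and RANKL at 14 hours, 1 between RANKL and untreated cells at 4 hours (Hist1h1c) and 2 for the difference of differences. With all 20 libraries 18, 25 and 22 members were called between I-BET and untreated cells, and 13, 34 and 23 between RANKL and untreated cells. Hist1h4k then reversed between I-BET and untreated cells, with log2 fold changes of -0.50, -0.45 and -0.75 at 4, 14 and 24 hours, and of -1.38, -1.34 and -1.64 with untreated library 2 in place of library 1.

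Leaving out each library gave 8 to 10, 8 to 10 and 9 to 14 calls between RANKL plus I-BET and RANKL, 4 to 8 between 24 and 4 hours of RANKL, and 0 to 1 for the difference of differences. With untreated library 2 in place of library 1 among these settings, the counts ran from 5 to 34, 7 to 37 and 7 to 40 between I-BET and untreated cells, and from 0 to 33, 1 to 43 and 1 to 39 between RANKL and untreated cells. The cause was not tested. Low counts limit Hist1h2ad, Hist2h3c2 and Hist1h3d, and comparisons with untreated cells rest on 1 library.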

Other observations

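Within treated groups, 28 of the 45 tested members had a higher RPKM in library 2 than in library 1 in at most 2 of the 9 groups, and 4 had it in at least 7. The H2A genes Hist1h2ap and Hist1h2ao were highest in this, with library 2 above library 1 in 9 and 8 of 9 groups. Hist1h2ao had 41 counts in library 2 and 33 in library 1 of RANKL plus I-BET cells at 24 hours, and 22 against 15 in RANKL cells. In untreated cells Hist1h2ao had 15 counts in library 2 and none in library 1. These 2 genes were named after their values were seen.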
